A study of Mus musculus with 12 samples.

Results

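This report describes 10 genes that the ERK pathway switches on and that mostly act back on it. They are the phosphatase genes Dusp4 and Dusp6, the Sprouty genes Spry1, Spry2 and Spry4, the Sprouty-related genes Spred1 and Spred2, the ETS factor genes Etv4 and Etv5, and the immediate early gene Egr1. They were chosen by symbol, and all 10 were found among the 31663 genes of the CDE diet experiment and among the 25285 genes of the normal diet experiment.

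Growth factors such as FGFs bind receptor tyrosine kinases, which load RAS with GTP and so start the kinase cascade of RAF, MEK and ERK. Active ERK phosphorylates transcription factors that induce a set of target genes, and many of these encode inhibitors of the same cascade. DUSP6 removes the activating phosphates from ERK in the cytoplasm and DUSP4 does so in the nucleus, Sprouty and Spred proteins restrain the step from receptor to RAS and RAF, and RNA of these genes is widely used as a readout of FGF signaling.

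Whole-liver RNA was sequenced from 12 C57BL/6 mice in 4 groups of 3. CflarLKO mice carried a Cflar allele with a floxed exon 1 and albumin-Cre, which targets it in hepatocytes and leaves the other liver cells their Cflar, the gene of the cell death inhibitor cFLIP. The paper reports that cFLIP RNA and protein fell in CflarLKO hepatocytes without being lost entirely. CflarFF mice carried the floxed allele and were the controls of CflarLKO mice. Both were females kept for 28 days on the CDE diet, a choline-deficient diet with 0.15% ethionine in the drinking water that injures hepatocytes, from an age of 8 weeks. Fgf18 Tg mice expressed an Fgf18 cDNA from the CAG promoter at Rosa26 once albumin-Cre had removed a stop cassette, so that hepatocytes made the growth factor, and non-Tg mice were their controls. These were 8 weeks old on a normal diet. The labels give no sex for them, and the study's methods give males as well as females for both genotypes. Which of several transgenic founder lines was sequenced is not given in the sources used here.

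Library totals ran from 6487178 to 10414883 counts in CflarLKO livers and from 8224069 to 9746145 in CflarFF livers, and from 1136680 to 3089872 in Fgf18 Tg livers and from 1726126 to 2215877 in non-Tg livers. Values below are normalized counts, that is read counts scaled for library size and composition (TMM) within an experiment, so that they cannot be compared between experiments. Cflar had 460.5, 449 and 477 normalized counts in CflarLKO livers, against 592, 608 and 716 in CflarFF livers. All 3 CflarLKO libraries were below all 3 CflarFF libraries, although counts per gene cannot tell transcripts that lack exon 1 from those that keep it. Cflar was also lower in all 3 Fgf18 Tg libraries (124, 128 and 113 normalized counts) than in any non-Tg library (164, 149 and 180). The Fgf18 Tg genotype does not delete Cflar. Fgf18 had 5747, 5151 and 4287 normalized counts in Fgf18 Tg livers, against 206, 83.3 and 102 in non-Tg livers. In the CDE diet experiment Fgf18 had 6, 7 and 3 read counts in CflarLKO livers, against 0, 0 and 1 in CflarFF livers. The Fgf18 check follows the labels, although reads of the transgene are not separated from those of the endogenous Fgf18 gene. Non-Tg livers had 191, 63 and 90 read counts of Fgf18, more than the 0, 0 and 1 of CflarFF livers, although non-Tg libraries were smaller. The source of these reads was not tested. The Cflar check goes in the direction of the labels, but a drop of Cflar is not particular to CflarLKO livers. The p-values of edgeR set the difference between groups against the spread between the 3 mice of a group, estimated with information shared across genes.

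The proximal promoters of 4 members are shown because the results turn on these genes: Spry1 and Spry2 were higher in both models, and Dusp6 and Spred1 in Fgf18 Tg livers. Each line gives the 100 bases before the gene's start in the direction of transcription, from RefSeq on build GRCm38.p6. Capitals mark the core letters of ETS factor sites, GGAA on either strand, a motif added after the data had been seen.
Spry1, chr3:37639847-37639946 (+): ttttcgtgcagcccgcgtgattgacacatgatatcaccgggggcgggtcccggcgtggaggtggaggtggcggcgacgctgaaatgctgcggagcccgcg
Spry2, chr14:105896820-105896919 (-): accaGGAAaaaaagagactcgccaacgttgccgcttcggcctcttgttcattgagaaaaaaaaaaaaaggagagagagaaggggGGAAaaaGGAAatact
Dusp6, chr10:99263131-99263230 (+): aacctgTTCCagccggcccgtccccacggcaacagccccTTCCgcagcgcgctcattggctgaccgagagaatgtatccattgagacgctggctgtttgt
Spred1, chr2:117120971-117121070 (+): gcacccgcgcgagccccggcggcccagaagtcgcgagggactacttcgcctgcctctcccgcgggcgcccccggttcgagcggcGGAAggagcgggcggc
The core occurs 0 times in the Spry1 stretch, 3 times in Spry2, 2 times in Dusp6 and once in Spred1, and 66.8% of the 32851 windows of this length hold it. Of the 10 members 6 have windows in that table, 7 in all. Within 250 bases before the start, 0 of the 7 windows held the longer ETS motif CCGGAA, the AP-1 motif TGANTCA, the CRE motif TGACGTCA, the EGR motif GCGNGGGCG or the CArG box, each searched on both strands. These motifs were found in 12%, 6.75%, 1.55%, 4.7% and 1.47% of all windows, in that order, so that few were to be met with in 7 windows.

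The Sprouty genes Spry1 and Spry2 rose in both models, and Dusp6, Spred1 and Egr1 rose in Fgf18 Tg livers. In Fgf18 Tg livers Dusp6, Spry1, Spry2, Spred1 and Egr1 were higher than in non-Tg livers, by 1.99-fold to 4.28-fold. In CflarLKO livers Spry1 and Spry2 were higher than in CflarFF livers, by 3.15-fold and 3.04-fold. Counts were tested by the quasi-likelihood test of edgeR over all genes that passed a filter for low counts, at a Benjamini-Hochberg adjusted p under 0.05. On the normal diet 7 members passed the filter and 5 of these were higher, against 10.7% of the 10909 genes tested. On the CDE diet all 10 members passed the filter and 2 were higher, against 15.6% of the 17036 genes tested, a share so near that the count on its own is no result about these genes. The count of 2 became 6 under scaling by library size only, a setting that moved the median of all genes by 0.46, and the count of 5 became 3 in a fit of all 12 libraries, 4 with a minimum of 10 counts in 3 libraries, which drops Spry1, and 7 under library size only or with no filter. The filter kept Spry1 on the normal diet through its 3 Fgf18 Tg libraries, with 0 non-Tg libraries at its minimum, and Spry2 on the CDE diet through its 3 CflarLKO libraries, with 0 CflarFF libraries at it. A gene kept in this way had to differ, so the counts and medians over members that passed are descriptions only, and so are these 2 calls as made after the filter. With no filter edgeR also called Spry1 in Fgf18 Tg livers (2.06, adjusted p = 0.00159) and Spry2 in CflarLKO livers (1.61, adjusted p = 0.00156).

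No member was lower in either model by edgeR, where 13.1% of all genes tested were lower in CflarLKO livers and 11.7% in Fgf18 Tg livers. At an unadjusted p under 0.05, 1 member, Dusp6, was lower in CflarLKO livers and 0 were lower in Fgf18 Tg livers. DESeq2 likewise called 1 member lower in CflarLKO livers and 0 in Fgf18 Tg livers. The 3 Fgf18 Tg libraries lay above the 3 non-Tg libraries for 6 of the 7 members tested, against 19.4% of genes tested. With Etv4, which had few counts and was not tested, that pattern was found for 7 of the 10 members. The 3 CflarLKO libraries lay above the 3 CflarFF libraries for 5 of the 10 members, Dusp4, Spry1, Spry2, Spred2 and Etv5, against 23.8% of genes tested. The median log2 fold change was 1.25 over the 7 members tested in Fgf18 Tg livers, beside 0.02 over all genes, and 0.57 over the 10 members in CflarLKO livers, beside 0.00 over all genes.

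**Figure D1:**
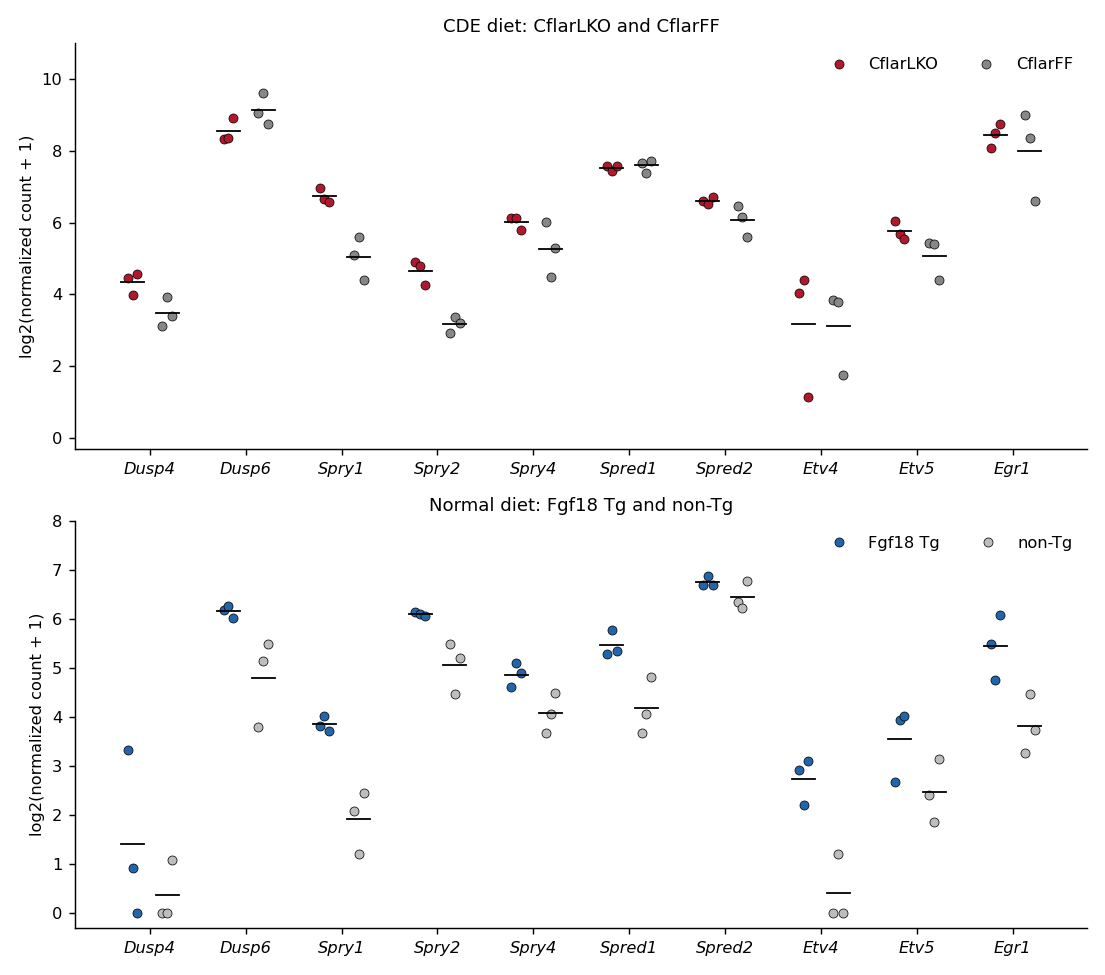
Normalized counts of the 10 members in each library, on the scale log2(normalized count + 1), in the CDE diet experiment (top) and the normal diet experiment (bottom). Points are single livers and bars are group means on that scale. The 3 Fgf18 Tg points lie above the 3 non-Tg points for 7 members, among them Etv4, which had few counts and was not tested.

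Dusp6, the cytoplasmic ERK phosphatase, passed the test in Fgf18 Tg livers and not in CflarLKO livers. It had 72.1, 76.5 and 64.2 normalized counts in Fgf18 Tg livers, against 12.9, 34.4 and 44.1 in non-Tg livers. All 3 Fgf18 Tg livers were above all 3 non-Tg livers, and the Fgf18 Tg livers were the less scattered group. The log2 fold change was 1.25 (standard error, SE, 0.29, adjusted p = 0.0081 by edgeR), which remained positive in a fit of all 12 libraries (1.18) at an adjusted p of 0.0512, just past the threshold. Adjusted p ran from 8.63e-07 to 0.0512 over its alternatives. In CflarLKO livers Dusp6 had 321, 326 and 481 normalized counts, against 529, 776 and 431 in CflarFF livers. The groups overlapped, since CflarLKO replicate 3 was above CflarFF replicate 3. The log2 fold change of -0.63 (SE 0.24) had an adjusted p of 0.0746 by edgeR. It was past the threshold with DESeq2 (-0.63, adjusted p = 0.0471), with no filter for low counts (-0.62), without CflarLKO replicate 3 (-0.85) and without CflarFF replicate 3 (-0.80), and it was -0.36 without CflarFF replicate 2. Over all alternatives the adjusted p ran from 0.00156 to 0.569, and the last of these, under library size only, came with a change of -0.19.

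Dusp4, the nuclear phosphatase, was counted rarely. In the CDE diet experiment it had 21.0, 14.8 and 22.9 normalized counts in CflarLKO livers, against 7.77, 14.2 and 9.52 in CflarFF livers. The groups did not overlap, but CflarLKO replicate 2 and CflarFF replicate 2 were nearly equal. Its log2 fold change was 0.89 (SE 0.36, adjusted p = 0.0908 by edgeR), and it was 1.34 (adjusted p = 0.015) under library size only. In the normal diet experiment the filter removed it, with 15, 1 and 0 read counts in Fgf18 Tg livers, against 0, 0 and 1 in non-Tg livers. The scaled ratio of the summed counts was 12.0 (95% counting interval 1.86 to 503), which rests on Fgf18 Tg replicate 1 alone. The groups overlapped (two-sided exact permutation test, p = 0.7). With no filter edgeR gave a log2 fold change of 3.11 (adjusted p = 0.0431), and the joint fit of all 12 libraries gave 3.31 (adjusted p = 0.0975). Such intervals hold for counting error alone, since these libraries carried no molecular identifiers and PCR copies of one molecule count as several reads.

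Spry1 encodes Sprouty 1, an inhibitor of RAS and RAF activation downstream of FGF receptors. It had 13.2, 15.3 and 12.2 normalized counts in Fgf18 Tg livers, against 3.23, 1.32 and 4.52 in non-Tg livers. Its Fgf18 Tg libraries differed little from one another, and the highest non-Tg liver was well below the lowest of them. Its log2 fold change was 2.10 (SE 0.45, adjusted p = 0.0032 by edgeR) on 47 read counts in Fgf18 Tg livers and 8 in non-Tg livers. It could not be fitted with a minimum of 10 counts in 3 libraries. CflarLKO livers had 123, 99.1 and 95.0 normalized counts of Spry1, against 33.3, 47.2 and 20.2 in CflarFF livers. Every CflarLKO liver had more than any CflarFF liver. A log2 fold change of 1.66 (SE 0.28, adjusted p = 0.0016 by edgeR) was found.

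Spry2, which like Spry1 is induced by FGF signaling and restrains it, also rose in both models. It had 70.3, 68.4 and 65.8 normalized counts in Fgf18 Tg livers, against 44.1, 21.1 and 36.2 in non-Tg livers. The Fgf18 Tg livers were nearly alike and all above the non-Tg livers, with a log2 fold change of 0.99 (SE 0.22, adjusted p = 0.0034 by edgeR). CflarLKO livers had 28.7, 26.9 and 18.0 normalized counts of Spry2, against 6.66, 9.44 and 8.33 in CflarFF livers. The lowest CflarLKO liver was above the highest CflarFF liver. This was a log2 fold change of 1.61 (SE 0.35, adjusted p = 0.0065 by edgeR) on 87 and 21 read counts. The calls of Spry1 and Spry2 held in both experiments under every alternative in which they could be fitted, with log2 fold changes of Spry1 from 1.77 to 2.48 in Fgf18 Tg livers and from 1.40 to 2.11 in CflarLKO livers. For Spry2 they were from 0.74 to 1.39 in Fgf18 Tg livers and from 1.47 to 2.06 in CflarLKO livers. Most alternatives used the same filter, which had kept Spry1 on the normal diet and Spry2 on the CDE diet through the higher group alone. They are no independent support for those calls.

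Spry4, a further Sprouty gene that FGF signaling induces, passed the test in neither model. It had 23.4, 33.3 and 29.1 normalized counts in Fgf18 Tg livers, against 11.8, 15.9 and 21.5 in non-Tg livers. The groups did not overlap, and the log2 fold change was 0.77 (SE 0.29, adjusted p = 0.0638 by edgeR). It was past the threshold without non-Tg replicate 3 (1.01, adjusted p = 0.0434), with a replicate block (0.82, adjusted p = 0.045) and under library size only (1.17), with adjusted p from 0.00507 to 0.244 over the alternatives. Among CflarLKO livers it had 69.3, 69.5 and 54.1 normalized counts, against 63.3, 21.2 and 38.1 in CflarFF livers. CflarFF replicate 1 lay among the CflarLKO libraries. The log2 fold change of 0.65 (SE 0.33, adjusted p = 0.167 by edgeR) became 1.12 without CflarFF replicate 1 (adjusted p = 0.0291) and 0.35 without CflarFF replicate 2, and it was 1.13 under library size only (adjusted p = 0.0154). Its adjusted p ran up to 0.362 over the alternatives.

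Spred1 encodes a membrane protein that brings the RAS GTPase-activating protein neurofibromin to RAS. It had 38.5, 54.0 and 39.8 normalized counts in Fgf18 Tg livers, against 11.8, 15.9 and 27.1 in non-Tg livers. All 3 Fgf18 Tg livers were above the non-Tg livers, with a log2 fold change of 1.26 (SE 0.28, adjusted p = 0.0041 by edgeR), and the call held under every alternative (0.99 to 1.66). In the CDE diet experiment Spred1 had 190.4, 172 and 188 normalized counts in CflarLKO livers, against 202, 166 and 210.5 in CflarFF livers. The libraries of both groups were intermingled. This gave a log2 fold change of -0.07 (SE 0.15, adjusted p = 0.753 by edgeR), with a 95% interval of the difference from -0.41 to 0.26, and it was 0.39 under library size only.

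Spred2, its paralog, was among the more abundant members on the normal diet. It had 103, 118 and 102 normalized counts in Fgf18 Tg livers, against 80.7, 74.0 and 109.6 in non-Tg livers. Non-Tg replicate 3 lay among the Fgf18 Tg livers, and the log2 fold change of 0.29 (SE 0.17, adjusted p = 0.239 by edgeR) had a 95% interval from -0.06 to 0.64. On the CDE diet it had 95.2, 91.3 and 103 normalized counts in CflarLKO livers, against 87.7, 69.6 and 47.6 in CflarFF livers. The groups did not overlap, but CflarFF replicate 1 came close to the CflarLKO libraries. Its log2 fold change was 0.49 (SE 0.23, adjusted p = 0.129 by edgeR). It was 0.29 without CflarFF replicate 3, and it passed in a fit of all 12 libraries (0.51, adjusted p = 0.0478) and under library size only (0.95), with adjusted p from 0.00731 to 0.325 over the alternatives. Under library size only Spred2 was also higher in Fgf18 Tg livers (0.69, adjusted p = 0.00405).

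Etv4 and Etv5 encode ETS transcription factors of the PEA3 group, whose RNA follows FGF signaling in many embryonic tissues. Etv4 had 11, 4 and 5 read counts in Fgf18 Tg livers, against 0, 1 and 0 in non-Tg livers. Every Fgf18 Tg liver had more than any non-Tg liver, although the filter for low counts removed the gene. The scaled ratio of the sums was 15.0 (95% counting interval 2.4 to 621), and the two-sided exact permutation test gave p = 0.1, the smallest that 3 mice against 3 allow. Without the filter edgeR gave a log2 fold change of 3.50 (adjusted p = 0.00919), and the joint fit of all 12 libraries gave 3.72 (adjusted p = 0.0865). On the CDE diet Etv4 had 22, 23 and 1 read counts in CflarLKO livers, against 12, 11 and 2 in CflarFF livers. Replicate 3 was low in both groups, a number that pairs no mice in the labels. The log2 fold change of 0.43 (SE 0.73, adjusted p = 0.704 by edgeR) turned to -0.024 without CflarLKO replicate 2 and -0.014 without CflarFF replicate 3.

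Etv5 had 9, 16 and 10 read counts in Fgf18 Tg livers, against 4, 2 and 7 in non-Tg livers, and the filter removed it as well. After scaling, Fgf18 Tg replicate 1 (5.41 normalized counts) fell below non-Tg replicate 3 (7.91), so that the groups overlapped (two-sided exact permutation test, p = 0.2). The scaled ratio of the sums was 2.02 (95% counting interval 1.04 to 4.16). Left out in turn, single libraries let it pass the filter, and without Fgf18 Tg replicate 1 its log2 fold change was 1.52 (adjusted p = 0.0428 by edgeR, from 0.0428 to 0.409 over the alternatives). In mice on the CDE diet Etv5 had 64.4, 50.4 and 45.7 normalized counts in CflarLKO livers, against 42.2, 41.3 and 20.2 in CflarFF livers. The CflarLKO livers were all higher, by little in the case of replicate 3. Its log2 fold change was 0.64 (SE 0.30, adjusted p = 0.138 by edgeR). It was 0.37 without CflarFF replicate 3 and 1.10 under library size only (adjusted p = 0.0168), with adjusted p up to 0.384 over the alternatives.

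Egr1 encodes a zinc finger transcription factor that ERK induces within minutes, and other stresses induce it too. It had 43.9, 26.1 and 67.3 normalized counts in Fgf18 Tg livers, against 8.61, 21.1 and 12.4 in non-Tg livers. The groups did not overlap, and the log2 fold change was 1.66 (SE 0.38, adjusted p = 0.0079 by edgeR). In a fit of all 12 libraries, where it was 1.61, the adjusted p was 0.253, the highest of its alternatives, which began at 5.73e-07. In mice on the CDE diet Egr1 had 269, 358 and 429 normalized counts in CflarLKO livers, against 510.6, 326 and 96.3 in CflarFF livers. The CflarFF livers held both the highest and the lowest value. Its log2 fold change of 0.17 (SE 0.59, adjusted p = 0.862 by edgeR) had a 95% interval from -1.34 to 1.68. It was -0.25 without CflarFF replicate 3 and 0.73 without CflarFF replicate 1.

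**Figure D2:**
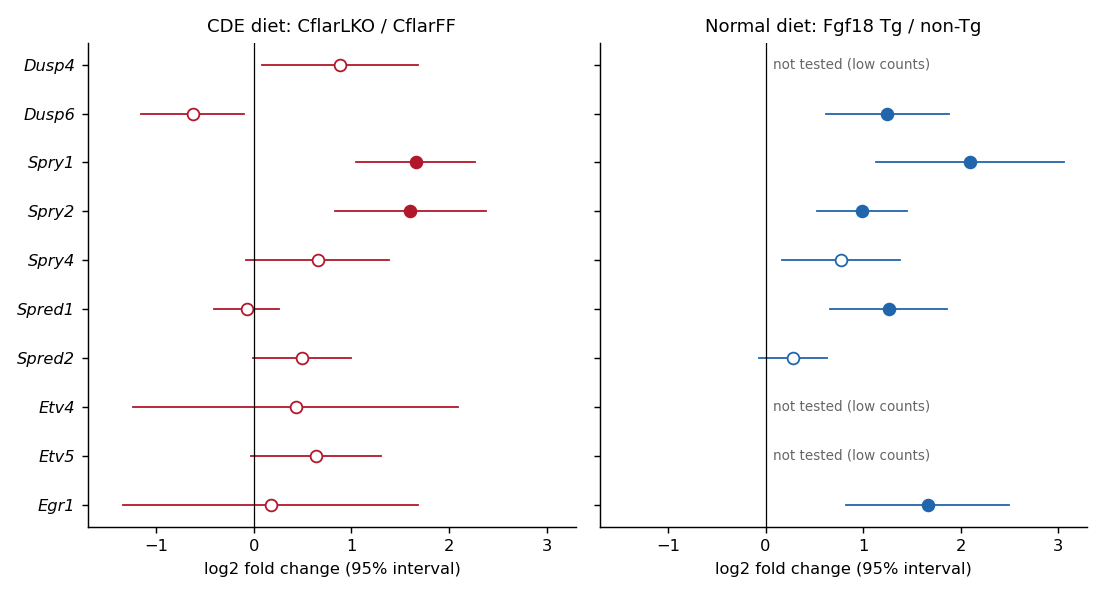
Log2 fold changes with 95% intervals of the members tested, for CflarLKO over CflarFF livers (left) and Fgf18 Tg over non-Tg livers (right). Filled points had an adjusted p under 0.05 by edgeR, 2 on the left and 5 on the right, and 3 members of the right panel had too few counts to be tested.

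Levels per kilobase of exon, taken from GENCODE vM21 gene models, placed different members on top in the 2 experiments. Dusp6 was the most abundant member on the CDE diet, at 120.1 normalized counts per kilobase in CflarLKO livers and 185 in CflarFF livers, ahead of Egr1 at 78.6 and 69.3. Spry1 followed in CflarLKO livers (36.4), whereas in CflarFF livers (11.6) Spred1 (28.4) and Spred2 (14.8) also ranked above it. On the normal diet Spry2 (32.7), Spred2 (23.3) and Dusp6 (22.7) led in Fgf18 Tg livers, and Spred2 (19.1), Spry2 (16.2) and Dusp6 (9.72) in non-Tg livers. Dusp4 and Etv4 were the least abundant in all 4 groups, at 7.13 and 3.93 in CflarLKO livers, 3.83 and 3.08 in CflarFF livers, 1.21 and 1.92 in Fgf18 Tg livers, and 0.137 and 0.142 in non-Tg livers. Neighbors in these orders, such as Spred2 and Dusp6 in Fgf18 Tg livers, were not tested against each other.

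A call in one model and not in the other does not show that the effects differ, so the difference was tested on all 12 libraries, over 13956 genes named in both tables and past the filter. All 10 members could be fitted. For Spred1 the effect in CflarLKO livers was lower than that in Fgf18 Tg livers by 1.26 on the log2 scale (difference -1.26, SE 0.32, adjusted p = 0.0359 by edgeR), and 3.1% of all genes passed this test. It was the only member called, and the call was lost without CflarLKO replicate 2 (-1.30), CflarFF replicate 1 (-1.21) or 3 (-1.19), Fgf18 Tg replicate 2 (-1.07), or non-Tg replicate 1 (-1.01) or 2 (-1.18), at adjusted p from 0.0552 to 0.126. Dusp6 had a wider gap of -1.79 (SE 0.46), with an adjusted p of 0.0611. DESeq2 called it (adjusted p = 0.00437), and so did edgeR without CflarLKO replicate 3 (-2.07), CflarFF replicate 2 (-1.52) or 3 (-1.97), or non-Tg replicate 3 (-2.19), and adjusted p ran up to 0.158 over the alternatives.

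The difference between the models did not pass the test for any Sprouty gene. It was -0.39 for Spry1 (95% interval -1.64 to 0.86), 0.69 for Spry2 (-0.16 to 1.55) and -0.04 for Spry4 (-1.06 to 0.97), none with an adjusted p under 0.42. Intervals were wide for the rarely counted genes, at -6.76 to 0.23 for Etv4 and -5.64 to 0.81 for Dusp4. For Egr1 the difference was -1.41 (-3.69 to 0.86), for Etv5 -0.36 (-1.71 to 0.99) and for Spred2 0.29 (-0.28 to 0.86). Diet, age, control mice and gene table differ between the models, as sex may, and their part cannot be told apart from that of the genotype.

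**Figure D3:**
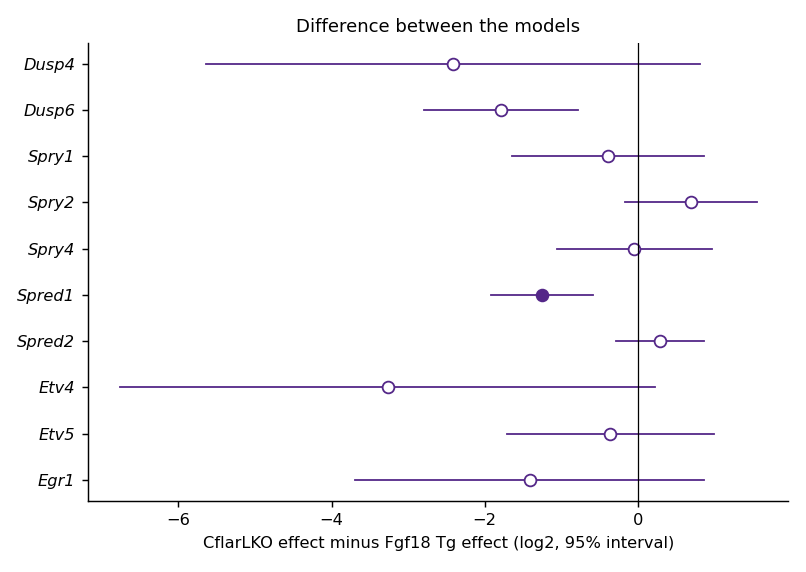
Difference between the log2 fold change in CflarLKO livers and that in Fgf18 Tg livers, with 95% intervals, from a fit of all 12 libraries. Negative values mean a lower effect in CflarLKO livers, and the filled point, Spred1 at -1.26, is the only one with an adjusted p under 0.05.

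Other genes that ERK is known to induce passed the test in CflarLKO livers and none did in Fgf18 Tg livers, a difference that was not itself tested. The filter for low counts removed Dusp5, Il17rd, Myc, Ier3 and Plaur on the normal diet, so that these could not pass there. All of these were higher in CflarLKO livers. For Dusp5, Myc, Ier3 and Plaur every Fgf18 Tg library was above every non-Tg library, on few counts, and for Il17rd the groups overlapped. In CflarLKO livers 13 of 18 listed were tested, and 6 were higher and 1 lower, beside 15.6% and 13.1% of all genes tested. The median log2 fold change was 0.73. Ier3, an immediate early gene of cell survival, rose by 2.82, Il17rd, which encodes the feedback inhibitor SEF, by 1.80 and Dusp5, a nuclear ERK phosphatase, by 1.55 (adjusted p = 0.00956 or less by edgeR). Il17rd had 56.7, 64.3 and 62.5 normalized counts in CflarLKO livers, against 13.3, 23.6 and 15.5 in CflarFF livers, with no overlap. Errfi1, an inhibitor of EGF receptors and the most abundant of the list, fell by 0.78 (adjusted p = 0.0117). Phlda1 had 338, 276 and 299 normalized counts in CflarLKO livers, against 1701, 721 and 463 in CflarFF livers, and its log2 fold change of -1.66 had an adjusted p of 0.0528 by edgeR. DESeq2 and an unadjusted p under 0.05 each gave 2 lower genes of the list. In Fgf18 Tg livers 5 of the list were tested and none passed by edgeR in either direction, where Errfi1 had a log2 fold change of 0.02 and the median was 0.11. At an unadjusted p under 0.05, 2 of these 5 were higher (Etv1, an ETS factor, 0.89, and Ccnd1, cyclin D1, 0.52) and 1 was lower (Phlda1, -0.49), and DESeq2 called 0 in either direction.

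Genes of the cascade itself passed the test in both directions. Over all genes tested, 15.6% were higher and 13.1% lower in CflarLKO livers, and 10.7% and 11.7% in Fgf18 Tg livers. The counts below are near those shares, and on their own they are no result about the cascade. Among genes of RAS and its adaptors, 2 of 13 were higher and 3 lower in CflarLKO livers (median -0.14), and 1 of 11 was higher and 1 lower in Fgf18 Tg livers (median -0.02). Gab2, a docking protein, rose by 1.85 in CflarLKO livers and Nras by 0.58, while Sos1, an exchange factor of RAS, fell by 0.93, the FGF receptor adaptor Frs2 by 0.51 and Hras by 0.43. In Fgf18 Tg livers Rras rose by 0.58 and Sos1 fell by 0.43, and DESeq2 called 0 of that list in either direction. In CflarLKO livers DESeq2 called 1 of it higher and 3 lower, and without CflarFF replicate 2 edgeR called 1 higher and 2 lower. Among RAF, MEK and ERK kinases and their scaffolds, 3 of 14 were higher and 2 lower in CflarLKO livers (median 0.27), and 1 of 11 was higher and 1 lower in Fgf18 Tg livers (median 0.01). Mapk3, the gene of ERK1, was the member called higher in both experiments, with 1203, 1024 and 984 normalized counts in CflarLKO livers against 627, 618 and 592 in CflarFF livers. It had 126, 129 and 141 in Fgf18 Tg livers, against 89.3, 75.3 and 83.6 in non-Tg livers. Its log2 fold change was 0.81 in CflarLKO livers (adjusted p = 0.00197) and 0.66 in Fgf18 Tg livers (adjusted p = 0.00313), both by edgeR. Ksr1, a scaffold, rose by 1.44 in CflarLKO livers and Rps6ka3, an ERK-activated kinase, by 0.63, and Braf and Map2k2, the MEK2 gene, fell by 0.43 each. DESeq2 called 3 of this list higher and 1 lower there. Pebp1, a RAF inhibitor, fell by 0.84 in Fgf18 Tg livers and had a change of -0.14 in CflarLKO livers that did not pass. Under library size only, 5 and 7 of these 2 lists were higher and 1 and 0 lower in CflarLKO livers.

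GTPase-activating proteins, which switch RAS off, were higher in 6 of 9 cases in CflarLKO livers and lower in 0 (median 1.04), and in 1 of 5 cases in Fgf18 Tg livers and lower in 0 (median 0.31). Rasal1 had 17.5, 27.8 and 22.9 normalized counts in CflarLKO livers, against 2.22, 3.54 and 0 in CflarFF livers, a log2 fold change of 3.46 (adjusted p = 0.00147 by edgeR). No CflarFF library of Rasal1 reached the minimum of the filter for low counts, and the same held for Rasal3, Egr2 and Fgf2. The filter kept these genes through their CflarLKO libraries, so that they had to differ, and the counts of their lists are descriptions only. Rasal3, a protein of blood cells, rose by 1.43 and Dab2ip by 1.38, while the most abundant, Rasa1, had a change of -0.06 that did not pass. In Fgf18 Tg livers Rasa3 rose by 1.01, a call that DESeq2 did not make. Immediate early genes other than Egr1 were higher in 6 of 13 cases in CflarLKO livers (median 1.30) and 1 of 7 in Fgf18 Tg livers (median 0.51). Egr2 rose by 3.05, Fos by 2.13 and the nuclear receptor gene Nr4a1 by 1.68 in CflarLKO livers, and Klf6 rose by 2.05 in Fgf18 Tg livers. The most abundant immediate early genes did not pass by edgeR. These were Jun in CflarLKO livers (0.28, adjusted p = 0.685) and Zfp36 in Fgf18 Tg livers (-0.04, adjusted p = 0.929). None of either list was lower by edgeR or DESeq2, or at an unadjusted p under 0.05. Upstream, 4 of 10 FGF and FGF receptor genes were higher in CflarLKO livers (Fgf2, Fgfr1, Fgfr2 and Fgfr3) and 2 lower (Fgf1 and Klb), and Fgf18 and Fgfr2 were higher and Fgf1 lower of 9 in Fgf18 Tg livers. Over all genes tested, 15.6% were higher and 13.1% lower in CflarLKO livers, and 10.7% and 11.7% in Fgf18 Tg livers.

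**Figure D4:**
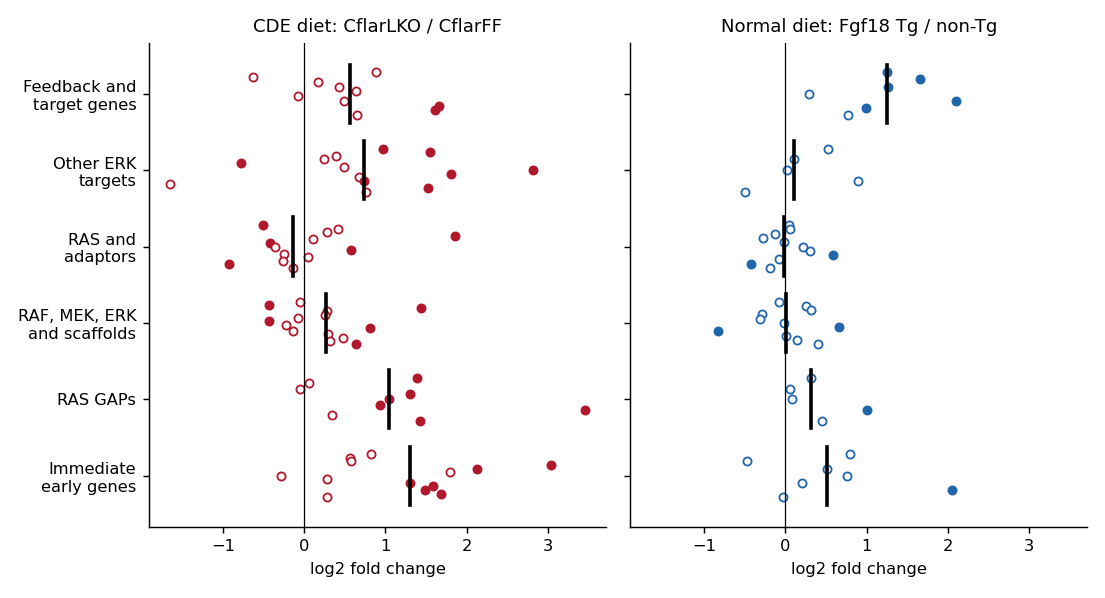
Log2 fold changes of the genes tested in each list of the pathway, CflarLKO over CflarFF livers (left) and Fgf18 Tg over non-Tg livers (right). Filled points had an adjusted p under 0.05 by edgeR and black bars are list medians, which for the 10 feedback and target genes were 0.57 on the left and 1.25 on the right.

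Many markers of stellate, myeloid and biliary cells were higher in both models, as Spry1 and Spry2 were. Of 15 stellate and mesenchymal markers tested 11 were higher in CflarLKO livers, with summed normalized counts of 10153 to 13317 in CflarLKO livers against 3146 to 4759 in CflarFF livers. In Fgf18 Tg livers 11 of 13 were higher, with sums of 1507 to 2036 against 394 to 519 in non-Tg livers. Of monocyte and macrophage markers 11 of 12 were higher in CflarLKO livers (5328 to 6359 against 2147 to 3084 in CflarFF livers) and 4 of 8 in Fgf18 Tg livers (417 to 479 against 193 to 256 in non-Tg livers). Clec4f of that list went the other way and passed in neither model by edgeR. Its log2 fold change was -0.43 in CflarLKO livers (adjusted p = 0.0729) and -0.39 in Fgf18 Tg livers (adjusted p = 0.129). Cholangiocyte markers were higher in 7 of 9 cases in CflarLKO livers and 2 of 3 in Fgf18 Tg livers, and neutrophil markers in 2 of 4 and 7 of 8 cases. Several markers passed the filter for low counts only through the libraries where they were high, and so had to differ. Among these were Retnlg, Camp, Ngp and Elane, with 0 counts in every non-Tg library, and Cftr and Cldn4 in CflarLKO livers. The counts of markers called are therefore descriptions only. They stand beside 15.6% higher and 13.1% lower over all genes tested in CflarLKO livers, and 10.7% and 11.7% in Fgf18 Tg livers. Counts near those shares, such as those of B and plasma cell and of endothelial markers, are on their own no result about these cells. CflarFF replicate 2 stood apart, with a cholangiocyte sum of 4142 against 1290 to 1423 in the other CflarFF livers and 7995 to 11563 in CflarLKO livers, and the counts of members called, 2 higher and 0 lower, were also found without it. In CflarLKO livers 2 of 6 T and NK cell markers, 1 of 5 B and plasma cell markers and 3 of 9 proliferation genes were higher (7 of 9 with DESeq2). In Fgf18 Tg livers 2 of 4 proliferation genes were higher (1 of 4 with DESeq2), and no T, NK, B or plasma cell marker passed the filter. Hepatocyte markers were lower in 9 of 15 cases in CflarLKO livers and in 7 of 15 in Fgf18 Tg livers, where 1 was higher. Endothelial markers were higher in 1 of 12 cases in CflarLKO livers, and 1 was higher and 2 were lower of 9 in Fgf18 Tg livers. None of these markers was at 0 in all libraries of an experiment where the table lists it. In whole-liver RNA more cells of a type and more RNA per cell cannot be told apart, and the part of these cell types in the results above was not tested.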

How the data were processed

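Livers of 12 mice (3 per group) were measured by RNA-seq of polyadenylated RNA. The authors amplified the cDNA by PCR, fragmented it, mapped reads to GRCm39 with Bowtie2 and deposited, for each experiment, read counts per gene and library, named by symbol without coordinates. The deposited normalized values, a signal per gene made by the authors with TCC-GUI, were used only as an alternative. The counting tool and gene annotation are not given in the sources used here, and 0 columns were left unused.

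The analysis used edgeR 4.0.16 in R 4.3.3 (filterByExpr with a minimum count of 10 and minimum total of 15, TMM, robust quasi-likelihood test, Benjamini-Hochberg over all genes tested, adjusted p under 0.05), each experiment on its own 6 libraries. The difference between the models was an interaction over all 12. Normalized counts are read counts over each library's effective size (its total over tested genes times its TMM factor), multiplied by the mean effective size. TMM factors ran from 1.14 to 1.22 in CflarLKO, 0.818 to 0.912 in CflarFF, 1.11 to 1.19 in Fgf18 Tg and 0.854 to 0.896 in non-Tg libraries. Members removed by the filter got a two-sided exact permutation test and an exact (Clopper-Pearson) 95% interval of the ratio of summed counts. No pair of libraries of a group agreed within sampling noise.

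All 10 members are named. Of each pathway list the text names up to 4 genes, those past the threshold without overlap, with the largest change and a mean of 20 or more in the group where they were higher, and the most abundant. Frs2, Braf, Map2k2, Etv1, Ccnd1, Phlda1, Fgfr2 and Klb were named after their values were seen, to complete small counts. Myc and Plaur were named after their values were seen too, as genes that the filter removed on the normal diet. A gene of the list of GTPase-activating proteins is not reported here and was left out of that list's counts. The members and lists were chosen with earlier results of these data known. The alternatives tried were scaling by RLE, by library size only and by the authors' factors, no filter, 10 counts in 3 libraries, a replicate block, DESeq2 1.42.0, limma-trend 3.58.1 on the authors' values with 1 added before taking log2, a joint fit of all 12 libraries, a threshold of 0.01 and leaving out each library. List counts under DESeq2, library size only and without CflarFF replicate 2 were added after seeing the data. The scripts were tested on simulated data.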

Additional observations from a re-analysis of the deposited data

Results flagged for a closer look

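The effects of the 2 models on Spred1 differed by -1.26 on the log2 scale (CflarLKO effect minus Fgf18 Tg effect), the only member for which the test of that difference passed (adjusted p = 0.0359 by edgeR). In the fit of all 12 libraries the change was -0.05 in CflarLKO livers and 1.20 in Fgf18 Tg livers. All 3 Fgf18 Tg livers were above all 3 non-Tg livers, while the CflarLKO and CflarFF livers overlapped. Groups of 3 libraries are too small for the search for single outlying libraries.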

How the results depend on the processing

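Calls of Spry1 and Spry2 in both experiments and of Spred1 in Fgf18 Tg livers held in every alternative that could be fitted. Most alternatives kept the filter that had let in Spry1 on the normal diet and Spry2 on the CDE diet through the higher group alone. The count of members higher in CflarLKO livers, 2, was 6 under library size only, where Spred1 turned to 0.39, and 2 to 3 when each library was left out. The count of members lower there, 0, was 1 with DESeq2 and with no filter, and 0 to 1 with a library left out, each time Dusp6. The count of members higher in Fgf18 Tg livers, 5, was 3 in a fit of all 12 libraries, 4 with 10 counts in 3 libraries, 7 under library size only and with no filter, and 5 to 6 with a library left out. The 1 member that differed between the models became 2 with DESeq2, 0 at an adjusted p under 0.01 and 0 to 2 with a library left out. With each library left out in turn, log2 fold changes on the CDE diet ran from -0.024 to 0.86 for Etv4 and from -0.25 to 0.73 for Egr1, and differences between the models ran from -0.34 to 0.44 for Spry4 and from -6.00 to 0.47 for Dusp4, which reversed without Fgf18 Tg replicate 1. Replicates carry the same numbers in both groups, but libraries of the same number did not deviate together (r from -0.120 to 0.0871), so no pairing was assumed. With a replicate block, 2 members were higher in CflarLKO livers and 6 in Fgf18 Tg livers, where Spry4 passed (0.82, adjusted p = 0.045), and 1 differed between the models. Median log2 fold changes of all genes were 0.46 in CflarLKO livers and 0.42 in Fgf18 Tg livers under library size only. Depth was lower on the normal diet, where 3 members were not tested and differences in them were not detectable by edgeR after the filter.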
